A study of Mus musculus with 27 samples.

Results

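The genes described here encode 10 RNA-binding proteins that control alternative splicing and the fate of messenger RNA in neurons: the polypyrimidine tract binding proteins Ptbp1 and Ptbp2, the NOVA genes Nova1 and Nova2, the RBFOX genes Rbfox1, Rbfox2 and Rbfox3, and the neuronal ELAV genes Elavl2, Elavl3 and Elavl4. They were chosen by symbol from the 24289 gene symbols used of the RNA tables, and all 10 were listed and tested. RNA was measured in 15 of the 27 samples of the study, in 5 groups of 3 libraries: microglia transduced with ND1, taken at day 7 (ND1 day 7) or day 2 (ND1 day 2), cultured cortical neurons, and control microglia at day 7 and at day 2. All cells came from the cortex of C57BL/6 mice with WT genotype at postnatal day 1. ND1 cells were infected with a lentivirus carrying ND1 and another carrying M2rtTA, a doxycycline-dependent activator, then kept in neuronal medium (Neurobasal with B27, BDNF, GDNF and NT3) and given doxycycline a single time. Neurons were grown in Neurobasal with B27. The medium of the control microglia is not stated, so transduction, doxycycline and medium cannot be told apart in the comparisons of ND1 with control cells. No day is labelled for the neurons. In the comparisons of ND1 cells with neurons, cell type, transduction, doxycycline, medium and culture age cannot be told apart. Nothing in the labels tells if the replicates were grown apart, and every p-value then measures only the spread between these libraries, which may be technical.

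In cells outside the nervous system PTBP1 binds pyrimidine-rich stretches of pre-mRNA and holds many neuronal exons out of the mature transcript. PTBP1 also keeps the product of its paralog low, because it causes skipping of an exon of Ptbp2, and the skipped transcript is degraded. During neuronal differentiation the microRNA miR-124 lowers PTBP1, PTBP2 appears in its place, and PTBP2 falls in turn as neurons mature. NOVA proteins regulate exons of synaptic genes, RBFOX proteins bind UGCAUG elements beside regulated exons, and the neuronal ELAV (Hu) proteins bind U-rich and AU-rich RNA and act on splicing, stability and translation. The unit of the tables is FPKM, fragments per kilobase of a transcript at equal library depth, with 1 value per gene, so exon use was not measured.

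The starts of Ptbp1, Ptbp2, Elavl3 and Rbfox3 are printed because they show how unlike the members are in CpG content, which bears on the methylation values given further on. Each runs 5′ to 3′ on the gene's strand from 250 bases before to 50 bases after the start in RefSeq GRCm38.p6 (mm10 coordinates), and the capitals mark CpG dinucleotides. Of these starts only that of Ptbp1 is at the 5′ end of the gene's full extent.
Ptbp1, chr10:79854182-79854481, plus strand: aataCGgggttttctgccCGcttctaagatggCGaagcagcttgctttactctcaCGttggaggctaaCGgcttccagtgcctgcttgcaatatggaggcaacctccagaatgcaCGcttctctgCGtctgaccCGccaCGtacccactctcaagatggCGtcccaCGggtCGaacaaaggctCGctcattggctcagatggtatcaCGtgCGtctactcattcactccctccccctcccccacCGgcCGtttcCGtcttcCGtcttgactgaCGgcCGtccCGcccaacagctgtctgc
Ptbp2, chr3:119783339-119783638, minus strand: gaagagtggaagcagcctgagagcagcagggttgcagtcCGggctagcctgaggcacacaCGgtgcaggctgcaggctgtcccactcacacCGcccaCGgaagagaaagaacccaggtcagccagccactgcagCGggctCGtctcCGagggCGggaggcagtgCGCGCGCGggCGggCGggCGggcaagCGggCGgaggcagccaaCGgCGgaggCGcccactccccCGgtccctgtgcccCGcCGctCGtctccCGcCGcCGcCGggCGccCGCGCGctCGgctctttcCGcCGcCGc
Elavl3, chr9:22051974-22052273, minus strand: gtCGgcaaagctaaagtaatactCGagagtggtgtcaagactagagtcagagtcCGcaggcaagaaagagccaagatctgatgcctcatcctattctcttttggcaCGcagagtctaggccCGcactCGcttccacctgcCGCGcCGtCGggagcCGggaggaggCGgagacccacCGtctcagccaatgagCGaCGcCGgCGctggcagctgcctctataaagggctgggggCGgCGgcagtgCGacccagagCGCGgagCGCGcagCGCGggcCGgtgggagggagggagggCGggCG
Rbfox3, chr11:118760992-118761291, minus strand: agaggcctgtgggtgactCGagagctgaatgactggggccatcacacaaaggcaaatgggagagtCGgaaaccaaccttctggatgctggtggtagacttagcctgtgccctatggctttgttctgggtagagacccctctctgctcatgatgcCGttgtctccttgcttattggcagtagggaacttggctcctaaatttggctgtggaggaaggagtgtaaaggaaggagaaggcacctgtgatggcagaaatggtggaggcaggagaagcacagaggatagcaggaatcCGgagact
The window of Ptbp2 held 36 CpGs, that of Elavl3 29, that of Ptbp1 22 and that of Rbfox3 only 4, against a median of 7 over 32851 RefSeq promoter windows (quartiles 3 and 20). Both strands were searched for 3 motifs, namely the E-box forms CAGATG and CAGCTG, which proneural factors bind, and TTCAGCACC, a stretch of the element bound by REST. Ptbp1 held CAGATG at position -55 and CAGCTG at position 39 relative to the start, and Elavl3 held CAGCTG at position -43. None of the 3 motifs was in the window of Ptbp2 or Rbfox3, and matches did not overlap. Among windows not printed, CAGATG was also found at starts of Elavl4 inside the gene. CAGCTG was found there too, and at starts of Nova1, Rbfox1 and Elavl2. CAGATG was present in 17.2% of all windows, CAGCTG in 16.3% and TTCAGCACC in 0.371%, so these matches are descriptions of the letters and not sites of binding.

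FPKM summed to 429013 to 739846 per library, and 10709 to 12092 genes per library reached 1 FPKM. Neurod1, the gene whose name fits the label ND1, stood at 32.5 to 36.7 FPKM in ND1 day 7 and 3073 to 3454 FPKM in ND1 day 2 libraries, against 1.19 to 2.16 FPKM in control day 7 and 1.04 to 1.15 FPKM in control day 2 libraries. Vector and endogenous transcripts were not separated in these values. The summed level of 10 microglia markers was 475 to 651 FPKM in ND1 day 7, 5120 to 5650 in ND1 day 2, 19.5 to 21.5 in neurons, 13277 to 13997 in control day 7 and 7149 to 7368 in control day 2 libraries. The summed level of 10 neuron markers was 4735 to 4738 FPKM in ND1 day 7, 761 to 947 in ND1 day 2, 3637 to 3940 in neurons, 22.6 to 30.9 in control day 7 and 25.4 to 29.5 in control day 2 libraries. The labelled cell types thus carried their own markers, apart from the microglia marker Tmem119, which was under 1 FPKM in control day 2. Astrocyte markers summed to 206 to 208 FPKM in ND1 day 7, 50.4 to 58.8 in ND1 day 2, 132 to 156 in neurons, 99.8 to 112 in control day 7 and 24.7 to 26.4 in control day 2 libraries, and oligodendrocyte markers to 74.9 FPKM at most in any library, with 3 or 4 of the 10 at a group mean of 1 FPKM or more. In such bulk samples fewer cells of a type and less RNA per cell cannot be told apart.

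The ND1 day 2 libraries stood apart in a way that touches every result at day 2. For 663 genes that were high in neurons and ND1 day 7 and low in control microglia (the members and Neurod1 left out), the level in ND1 day 2 lay above control day 2 by a nearly constant share of the difference between ND1 day 7 and control day 2. The median share was 17.1%, with quartiles of 16.3% and 17.6%. By library it was 19.4% in replicate 1, 16.3% in replicate 2 and 15.4% in replicate 3. Results at day 2 are therefore given as measured, and again after the median share of the ND1 day 7 level was subtracted from each ND1 day 2 library and the remainder rescaled. What gives this constant share was not tested.

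Ptbp1 and Ptbp2 moved in opposite directions. At day 7 Ptbp1 fell to 20.8% of its control level, and Ptbp2 rose 20.8-fold. Ptbp1 (chr10:79854432-79864435) had 16.1, 14.4 and 14.9 FPKM in ND1 day 7 libraries, 7.01, 7.12 and 6.89 FPKM in neurons, and 71.6, 76.2 and 71.1 FPKM in control day 7 libraries. The groups did not overlap, and ND1 day 7 lay between the neuron and control levels. The log2 fold change of Ptbp1 between ND1 day 7 and control day 7 was -2.20 (SE 0.04, limma adjusted p = 1.50e-15). Ptbp2 (chr3:119718741-119784647) had 58.2, 65.0 and 61.3 FPKM in ND1 day 7 libraries, 47.2, 41.6 and 41.8 FPKM in neurons, and 2.86, 2.73 and 3.29 FPKM in control day 7 libraries. Here ND1 day 7 was the highest group, above every neuron library. The log2 fold change of Ptbp2 between ND1 day 7 and control day 7 was 3.98 (SE 0.06, limma adjusted p = 4.66e-16).

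The ratio of Ptbp1 to Ptbp2, both in FPKM and so per transcript length, sums up the pair in each library. It was 0.247 ± 0.029 in ND1 day 7, 3.12 ± 0.10 in ND1 day 2, 0.162 ± 0.012 in neurons, 24.8 ± 3.16 in control day 7 and 8.35 ± 0.15 in control day 2 libraries (SD, n = 3 each). Ptbp1 was thus the more abundant of the pair in every control and ND1 day 2 library, and Ptbp2 in every ND1 day 7 and neuron library.

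**Figure D1:**
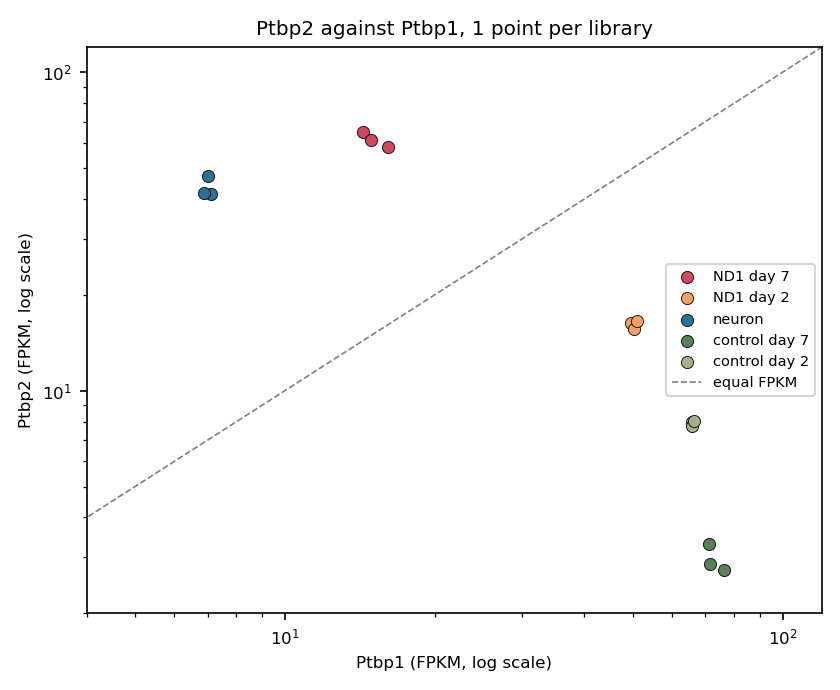
Ptbp2 against Ptbp1 in FPKM, both axes on a log scale, with 1 point per library coloured by group and a dashed line where both are equal. The 3 ND1 day 7 and 3 neuron libraries lie above the line and all other libraries below it, with control day 7 farthest from it.

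Of the 10 members, 8 were called higher and 1 lower in ND1 day 7 than in control day 7 cells, where a call needs an adjusted p under 0.05 and a log2 fold change of at least 1 in size. Among all 13599 tested genes 25.7% were called higher and 24.5% lower in this comparison. The median log2 fold change was 4.31 over the members and 0.04 over all tested genes. A filter of 1 FPKM in 3 libraries decided which genes were tested, and 6 members (Nova1, Nova2, Rbfox1, Rbfox3, Elavl2 and Elavl4) were under 1 FPKM in all 6 control libraries. These 6 passed it only through their ND1 or neuron levels, so the count over the members is a description.

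**Figure D2:**
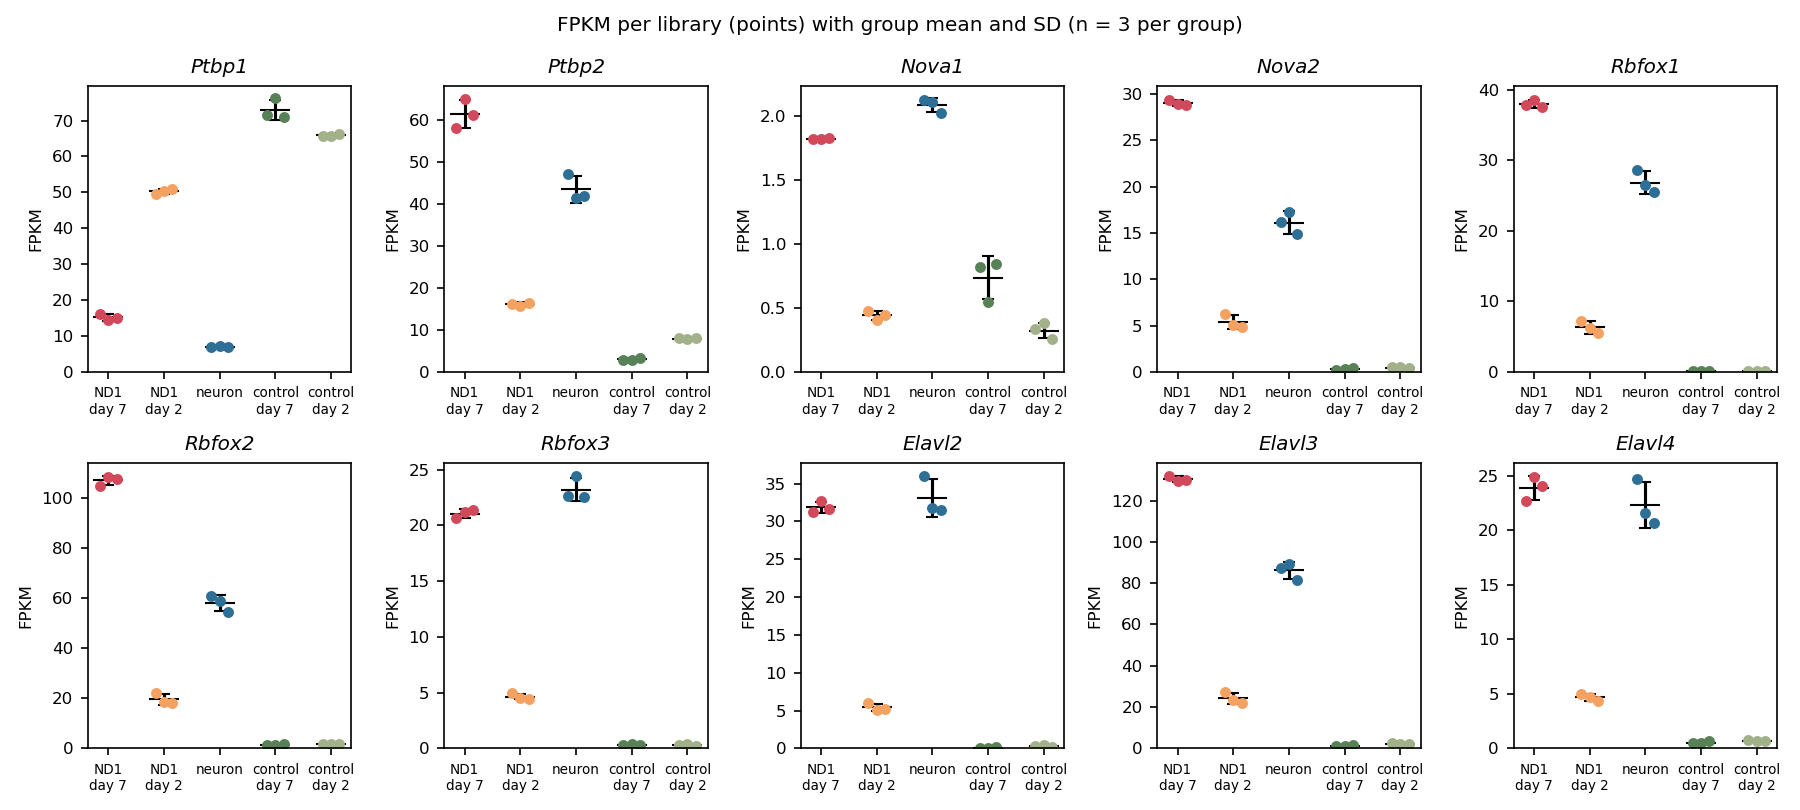
FPKM of each gene in each library, with points for the 3 libraries of a group and black bars for the group mean and SD; each panel has its own axis from 0. All genes but Ptbp1 have their lowest mean in a control group, and Ptbp1 has its highest there.

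Nova2, of the NOVA pair, changed by far more than Nova1. Nova2 (chr7:18925888-18965319) had 29.4, 28.9 and 28.8 FPKM in ND1 day 7 libraries, 16.2, 17.3 and 14.8 FPKM in neurons, and 0.145, 0.259 and 0.365 FPKM in control day 7 libraries. The 3 groups did not overlap, and the log2 fold change between ND1 day 7 and control day 7 was 4.58 (SE 0.08, limma adjusted p = 1.66e-15). Nova1 (chr12:46697895-46819480) had 1.82 FPKM in each ND1 day 7 library, 2.12, 2.11 and 2.02 FPKM in neurons, and 0.818, 0.543 and 0.841 FPKM in control day 7 libraries. Its groups did not overlap either, but the log2 fold change of 0.71 (SE 0.06, limma adjusted p = 5.41e-08) was under the threshold of size. With a pseudocount of 0.1 in place of 1 it was 1.22 and past it. Nova2 made up 94.1% of the summed FPKM of the pair in ND1 day 7 and 88.6% in neurons.

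All 3 RBFOX genes rose, and Rbfox2 was the most abundant of them in every group. Rbfox2 (chr15:77078990-77308434), which is expressed in many tissues as well as in neurons, had 105, 108 and 108 FPKM in ND1 day 7 libraries, 60.9, 59.1 and 54.4 FPKM in neurons, and 1.31, 1.38 and 1.88 FPKM in control day 7 libraries. Its log2 fold change between ND1 day 7 and control day 7 was 5.43 (SE 0.08, limma adjusted p = 5.31e-16). Rbfox1 (chr16:5884793-7412480), a gene of neurons, heart and muscle, had 37.9, 38.6 and 37.6 FPKM in ND1 day 7 libraries, 28.6, 26.5 and 25.5 FPKM in neurons, and 0.096, 0.116 and 0.147 FPKM in control day 7 libraries. For both genes the ND1 day 7 libraries lay above every neuron library. The log2 fold change of Rbfox1 was 5.12 (SE 0.07, limma adjusted p = 2.67e-16).

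Rbfox3 (chr11:118489760-118911597) encodes the NeuN antigen, which is used to stain mature neurons. It had 20.6, 21.2 and 21.3 FPKM in ND1 day 7 libraries, 22.6, 24.4 and 22.6 FPKM in neurons, and 0.298, 0.386 and 0.324 FPKM in control day 7 libraries. Unlike Rbfox1 and Rbfox2, every ND1 day 7 library was below every neuron library. The log2 fold change of Rbfox3 between ND1 day 7 and control day 7 was 4.05 (SE 0.05, limma adjusted p = 2.08e-16). The summed FPKM of the family was 166 ± 2.38 in ND1 day 7 and 108 ± 5.08 in neurons (SD, n = 3 each). Rbfox2 held 64.5% of this sum in ND1 day 7 and 53.7% in neurons, whereas Rbfox3 held 12.7% in ND1 day 7 and 21.4% in neurons.

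The neuronal ELAV genes rose too, and Elavl3 had the highest FPKM of the 3 in ND1 day 7 cells. Elavl3 (chr9:22015005-22052146), which encodes HuC and is active in young neurons, had 132, 130 and 130 FPKM in ND1 day 7 libraries, 87.6, 89.4 and 81.6 FPKM in neurons, and 1.11, 1.32 and 1.42 FPKM in control day 7 libraries. Its log2 fold change of 5.85 between ND1 day 7 and control day 7 (SE 0.08, limma adjusted p = 2.15e-16) is on the log2(FPKM + 1) scale, which understates genes near 0 in control cells. As a ratio of mean FPKM the rise was 101-fold for Elavl3, 354-fold for Elavl2 and 317-fold for Rbfox1, so the order of the members by fold depends on the scale. Elavl2 (chr4:91211533-91400108), which encodes HuB, had 31.3, 32.7 and 31.7 FPKM in ND1 day 7 libraries, 36.0, 31.8 and 31.5 FPKM in neurons, and 0.0446, 0.0491 and 0.176 FPKM in control day 7 libraries. Elavl4 (chr4:110203737-110351939), which encodes HuD, had 22.6, 24.8 and 24.1 FPKM in ND1 day 7 libraries, 24.7, 21.5 and 20.6 FPKM in neurons, and 0.471, 0.442 and 0.658 FPKM in control day 7 libraries. Elavl2 and Elavl4 overlapped between ND1 day 7 and neurons, and Elavl3 did not. The log2 fold changes between ND1 day 7 and control day 7 were 4.92 for Elavl2 (SE 0.07, limma adjusted p = 3.61e-16) and 4.03 for Elavl4 (SE 0.07, limma adjusted p = 1.25e-15). The summed FPKM of the 3 genes was 186 ± 0.796 in ND1 day 7 and 142 ± 7.33 in neurons (SD, n = 3 each).

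At day 2 the RBFOX and ELAV genes and Nova2 were already above control, and Ptbp1 stood at 76.3% of its control level. As measured, 7 members were called higher and 0 lower by limma in ND1 day 2 than in control day 2 cells (1 lower, Ptbp1, at an unadjusted p under 0.05), while 9.1% of all tested genes were called higher and 0.618% lower. Both changes of the PTBP pair had small adjusted p-values but were under the threshold of size. Ptbp1 had 49.6, 50.4 and 51.0 FPKM in ND1 day 2 libraries, against 65.7, 65.8 and 66.4 FPKM in control day 2 libraries. Its log2 fold change was -0.38 (SE 0.04, limma adjusted p = 1.52e-06). Ptbp2 had 16.3, 15.6 and 16.5 FPKM in ND1 day 2 libraries, against 7.97, 7.72 and 8.01 FPKM in control day 2 libraries. Its log2 fold change was 0.94 (SE 0.06, limma adjusted p = 1.06e-08), and it was past the threshold of size with a pseudocount of 0.1 (1.02) or median-of-ratios scaling (1.05).

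Among the other members Elavl3, at 27.1, 23.6 and 22.0 FPKM in ND1 day 2 against 2.49, 2.18 and 1.97 FPKM in control day 2 libraries, had a log2 fold change of 2.97 (SE 0.08, limma adjusted p = 1.07e-12). Rbfox2 had 22.0, 18.5 and 18.1 FPKM in ND1 day 2 libraries, against 1.80, 1.88 and 1.60 FPKM in control day 2 libraries (log2 fold change 2.89). Rbfox1 had 7.21, 6.16 and 5.50 FPKM in ND1 day 2 libraries, against 0.134, 0.136 and 0.0653 FPKM in control day 2 libraries (2.71). In each of these 3 genes replicate 1 was the highest ND1 day 2 library, as it was for the share over neuron-high genes. The log2 fold changes of Elavl2, Nova2, Rbfox3 and Elavl4 were 2.31, 2.12, 2.12 and 1.74. Nova1 had 0.474, 0.404 and 0.444 FPKM in ND1 day 2 libraries, against 0.332, 0.378 and 0.256 FPKM in control day 2 libraries (0.12, limma adjusted p = 0.085). With quantile normalization the direction of Nova1 was turned (-0.47, limma adjusted p = 6.1e-06), so no direction is given for it at day 2.

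Seen as a share of the difference between ND1 day 7 and control day 2, most members at day 2 stood where the neuron-high genes stood. The share was 17.2% for Nova2, 16.3% for Rbfox1, 16.9% for Rbfox2, 16.2% for Elavl2, 17.1% for Elavl3 and 17.2% for Elavl4, while 90% of the neuron-high genes lay between 14.95% and 18.9%. Ptbp2 was within this range at 15.3%. Outside it were Rbfox3 at 20.9%, higher than 98.2% of the neuron-high genes, and Nova1 at 7.93%. The share of Ptbp1, 30.8%, is of a fall, so the range of these rising genes is no reference for it. For Ptbp1 the value depends on which control is taken as the starting point of ND1 day 7, and it was 27.1% with control day 7. With that starting point Ptbp2 was at 14.1% and Nova1 at 10.9%. As a reference for falling genes, the ratio of ND1 day 2 to control day 2 was taken for 307 genes high in control day 7 and low in neurons. Its quartiles over these genes were 65.0% and 81.1%, with 72.5% as the middle value. The ratio for Ptbp1, 76.3%, lay between these quartiles.

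**Figure D3:**
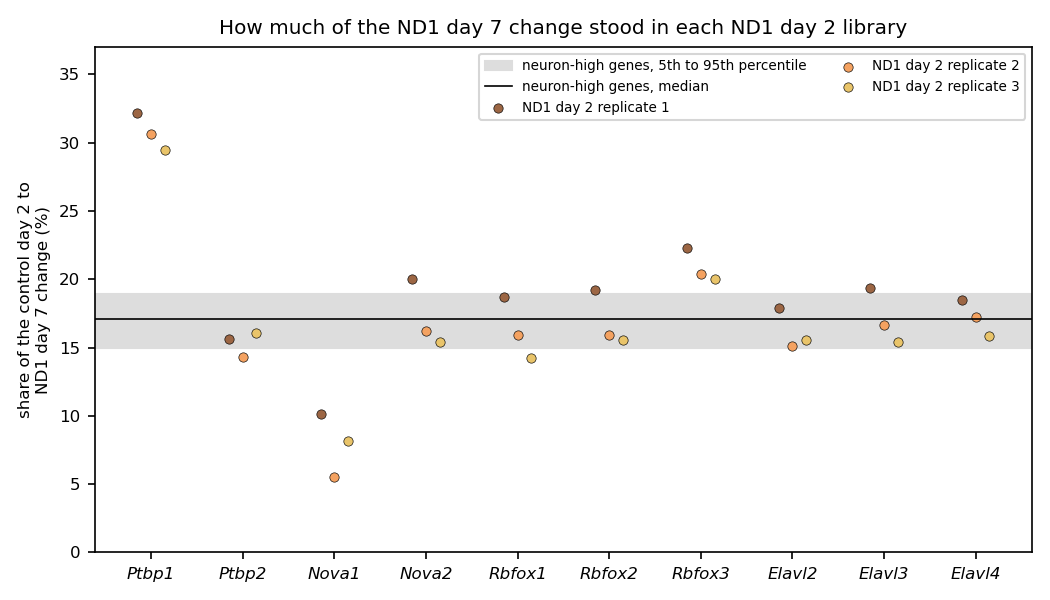
Share of the change from control day 2 to ND1 day 7 that was present in each ND1 day 2 library, in percent, for each gene. The line and grey band mark the median (17.1%) and the 5th to 95th percentile (14.95% to 18.9%) of 663 neuron-high genes. Rbfox3 and Ptbp1 lie above the band and Nova1 below it. Ptbp1 fell, so the band of rising genes is no reference for it.

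After this share was removed from the ND1 day 2 libraries, limma called 0 of the 10 members higher or lower than in control day 2 cells, where 7 had been called higher as measured. For members whose share lay near the median removed, a value near 0 follows from the subtraction. The absence of calls is therefore a description and not a test of these members. At an unadjusted p under 0.05, 1 member (Rbfox3) was higher and 4 were lower. Rbfox3 had 1.04, 1.32 and 1.43 FPKM left in ND1 day 2 libraries, against 0.291, 0.368 and 0.233 FPKM in control day 2 libraries. Its log2 fold change was 0.80 (limma adjusted p = 8.53e-07), under the threshold of size. The share of Rbfox3 (20.9%) was above the median removed, so a remainder above control follows from the subtraction. The p-value leaves out the spread of the share between genes. Ptbp1 had 57.9, 57.3 and 57.5 FPKM left (log2 fold change -0.19). Ptbp2 had 5.41, 6.66 and 8.34 FPKM left, against 7.97, 7.72 and 8.01 FPKM in control day 2 libraries. Its log2 fold change was turned to -0.21 (SE 0.11, limma adjusted p = 0.13), and no direction is read from it. The values of Rbfox1 (-0.15), Rbfox2 (-0.09), Elavl2 (-0.22) and Nova1 (-0.19) were turned as well, and those of Nova2 (0.07), Elavl3 (0.09) and Elavl4 (0.02) were near 0. Subtraction left Rbfox1 at 0 in all 3 ND1 day 2 libraries and Elavl2 at 0, 0 and 0.343 FPKM, and values below 0 were set to 0. The negative values of these genes are set by that floor, and no direction is read from them.

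**Figure D4:**
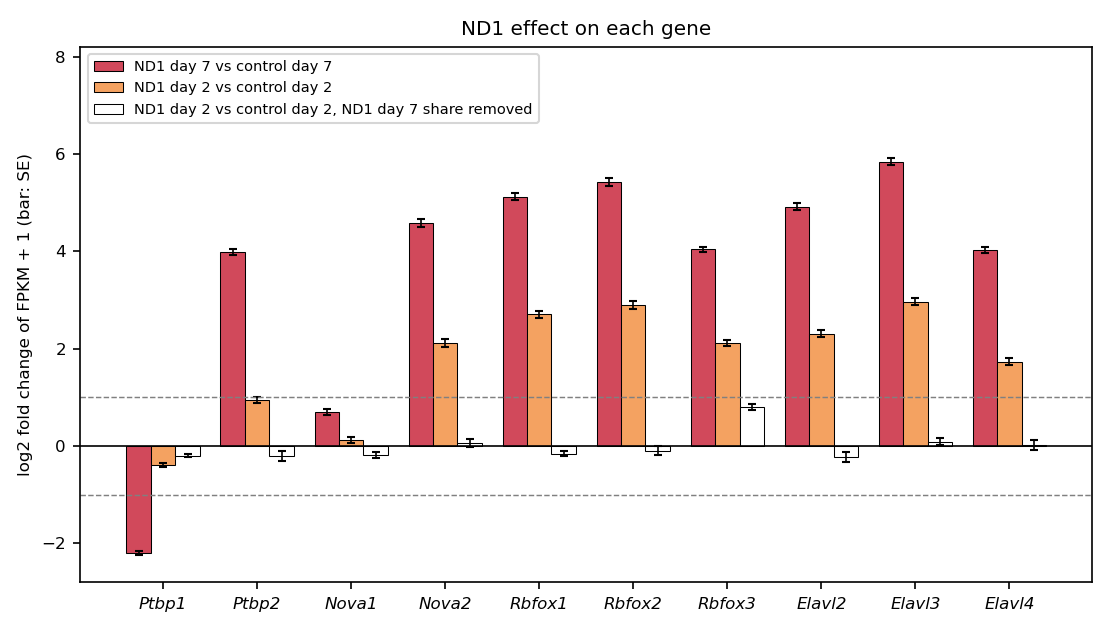
Log2 fold change of FPKM + 1 for each gene in ND1 day 7 against control day 7 (red), in ND1 day 2 against control day 2 as measured (orange), and in ND1 day 2 against control day 2 after the ND1 day 7 share was removed (white). Error bars are limma standard errors, and dashed lines mark a log2 fold change of 1 in size; Rbfox3 has the tallest white bar at 0.80.

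The ND1 effect differed between the days for 9 of the 10 members. In the test of the day 7 effect minus the day 2 effect, 8 members were called higher and 1 (Ptbp1) lower, and 20.5% of all tested genes were called higher and 20.8% lower. The difference was 3.04 for Ptbp2 (SE 0.09, limma adjusted p = 1.19e-12), and was -1.81 for Ptbp1 (SE 0.06, limma adjusted p = 2.27e-12). For the other 7 called members it lay between 1.93 for Rbfox3 and 2.88 for Elavl3, and for Nova1 it was 0.58. Compared directly, ND1 day 7 also exceeded ND1 day 2 for the same 8 members and was lower for Ptbp1, with log2 fold changes of 1.87 for Ptbp2, -1.67 for Ptbp1 and 0.97, not called, for Nova1. In that comparison 22.6% of all tested genes were called higher and 21.1% lower. These comparisons share libraries and are not independent of each other.

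Between the control days Ptbp2 was the only member called. Ptbp2 fell to 2.86, 2.73 and 3.29 FPKM in control day 7 libraries, against 7.97, 7.72 and 8.01 FPKM in control day 2 libraries. The log2 fold change of -1.17 (SE 0.06, limma adjusted p = 1.46e-09) stood beside 3.9% of all tested genes called higher and 3.79% lower. For 5 further members the limma adjusted p was under 0.05 and the log2 fold change under the threshold of size: 0.39 for Nova1, 0.14 for Ptbp1, -0.49 for Elavl3, -0.24 for Elavl2 and -0.22 for Nova2. Nova1 had 0.818, 0.543 and 0.841 FPKM in control day 7 libraries, against 0.332, 0.378 and 0.256 FPKM in control day 2 libraries, with no overlap. Elavl2 had 0.0446, 0.0491 and 0.176 FPKM in control day 7 libraries, against 0.256, 0.384 and 0.230 FPKM in control day 2 libraries, and was called lower with a pseudocount of 0.1 (-1.08). The fold change of Ptbp2 between ND1 and control cells at day 7 is thus measured against a control level that was itself lower than at day 2. Between control day 7 and control day 2 the libraries of Rbfox1, Rbfox2 and Rbfox3 overlapped.

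Against cortical neurons, ND1 day 7 cells had more Ptbp1, and the other 9 members differed by less than the threshold of size. Ptbp1 was 2.16 times as high in ND1 day 7 cells as in neurons, with a log2 fold change of 1.01 (SE 0.04, limma adjusted p = 3.82e-11), and was the only member called (1 higher, 0 lower), while 7.29% of all tested genes were called higher and 6.24% lower. This call sits at the threshold of size, and it was lost without ND1 day 7 replicate 1 (0.97) and without neuron replicate 3 (1.00, just under the threshold). Higher in ND1 day 7 but not called were Rbfox2 at 0.87, Nova2 at 0.81, Elavl3 at 0.59, and Ptbp2 and Rbfox1 at 0.49 each, with limma adjusted p between 5.14e-07 and 2.78e-05. Rbfox3 had a log2 fold change of -0.13 (limma adjusted p = 0.0324). For Nova1 (-0.13, SE 0.06), Elavl2 (-0.05, SE 0.07) and Elavl4 (0.10, SE 0.07) the limma adjusted p was 0.0717, 0.547 and 0.237, and the size of these standard errors limits what difference could have been seen.

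The higher Ptbp1 stood beside remaining transcripts of microglia. For the 307 genes high in control day 7 and low in neurons, the neuron level was subtracted from both ND1 day 7 and control day 7. A median of 4.81% of the control day 7 level was then left in ND1 day 7 cells (quartiles 4.13% and 5.86%, 95th percentile 7.91%). By the same measure 12.3% of Ptbp1 was left. Its neuron mean of 7.01 FPKM was too high for it to be among the 307 genes. Of 3 other genes described further on, 16.6% of Rest, 9.25% of Ptbp3 and 4.89% of Mbnl1 was left. The part of remaining microglial RNA in the Ptbp1 level was not tested. Neurons set against control day 7 cells gave the same pattern of calls as ND1 day 7 cells did, with 8 members higher and 1 lower among 28.1% of all tested genes called higher and 25.2% lower. Ptbp1 had a log2 fold change of -3.21 there and Ptbp2 of 3.49, and the comparisons share the control libraries.

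Ranked by group mean, Ptbp1 was highest in control day 7, followed by control day 2, ND1 day 2, ND1 day 7 and neurons, with no overlap between neighbours. ND1 day 7 was the highest group for Ptbp2, Nova2, Rbfox1, Rbfox2, Elavl3 and Elavl4, and neurons for Nova1, Rbfox3 and Elavl2. Neighbouring groups overlapped only between the 2 control groups for Rbfox1, Rbfox2 and Rbfox3, and between ND1 day 7 and neurons for Elavl2 and Elavl4. Over the 15 libraries the levels most like that of Ptbp1, by Pearson correlation of log2(FPKM + 1), were those of Pon2, Arhgap9, Slc9a3r1, Dock2 and Ostf1 (0.9995 to 0.9993). Dock2, for example, averaged 3.57 FPKM in ND1 day 7, 48.7 in ND1 day 2, 0.105 in neurons, 87.7 in control day 7 and 74.9 in control day 2 libraries. The levels most like that of Ptbp2 were those of Chrnb2, Ttc3, Csrnp2, Dgki and Efnb2 (0.998 to 0.995). Chrnb2, a nicotinic acetylcholine receptor subunit, averaged 15.5 FPKM in ND1 day 7, 4.69 in ND1 day 2, 11.8 in neurons, 0.531 in control day 7 and 2.22 in control day 2 libraries. The 15 points form 5 groups, so these correlations mainly follow the group means.

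Most of the other regulators of splicing in development rose at day 7. Of 18 tested among 19 listed, 13 were called higher and 4 lower in ND1 day 7 than in control day 7 cells, with a median log2 fold change of 2.14. Over all tested genes 25.7% were called higher and 24.5% lower, so the count of lower genes was near the background. On the log2(FPKM + 1) scale, which sets this order, the list was led by Celf3 (5.73, 79.4 ± 2.81 FPKM in ND1 day 7 and 0.533 ± 0.246 in control day 7), Khdrbs3 (5.42), Celf5 (5.22) and Khdrbs2 (4.54). The CELF proteins bind GU-rich RNA, and KHDRBS2 and KHDRBS3, also called SLM1 and SLM2, regulate exons of neurexin genes. The 4 that fell were Mbnl1 (-3.03), Ptbp3 (-2.77), Mbnl2 (-2.76) and Qk (-1.78), which encode the muscleblind proteins, the PTBP paralog of blood cells and the quaking protein of glia. Ptbp3, the paralog nearest to the members, averaged 4.27 ± 0.267 FPKM in ND1 day 7, 1.14 ± 0.220 FPKM in neurons and 35.0 ± 0.465 FPKM in control day 7 libraries. By the measure of microglial transcripts above, 9.25% of Ptbp3 was left in ND1 day 7 cells. At day 2 the list had 9 called higher and 0 lower, and 0 higher or lower by limma (4 higher and 5 lower at an unadjusted p under 0.05) once the ND1 day 7 share was removed. The counts after removal depend on the share subtracted, and no direction is read from them.

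Some genes of general splicing factors were called higher at day 7, beside the 25.7% of all tested genes called higher and 24.5% lower. The others changed by less than the threshold of size. Of 11 SR protein genes, whose products promote exon inclusion, 7 were called higher and 0 lower at day 7 (median log2 fold change 1.12), led by Srsf7 (2.39), Tra2b (2.08), Srsf3 (2.06) and Srsf1 (1.91). Of 15 hnRNP genes 7 were called higher and 0 lower (median 0.95), led by Hnrnpa1 (2.85), Hnrnpa3 (2.49), Hnrnph1 (2.27) and Hnrnpd (1.98). At an unadjusted p under 0.05, 2 SR genes and 1 hnRNP gene were lower, namely Srsf5 (-0.35), Srsf9 (-0.67) and Hnrnpf (-0.86). Their limma adjusted p was 8.78e-06 or less, so only the threshold of size kept them from a call. The uncalled genes that were higher, from Hnrnph2 (0.24) to Hnrnpll (0.95), had a limma adjusted p of 7.53e-06 or less. With quantile normalization 11 of the hnRNP genes were called higher. Hnrnpa1, which like several of these genes has processed pseudogene copies that can share its reads, averaged 121 ± 5.36 FPKM in ND1 day 7, 55.4 ± 1.69 FPKM in neurons and 15.9 ± 1.34 FPKM in control day 7 libraries. At day 2 limma called 0 genes of either list, while at an unadjusted p under 0.05 the SR list had 5 higher and 3 lower and the hnRNP list 9 higher and 3 lower. The largest of these changes was that of Hnrnph1 (0.87, limma adjusted p = 1.65e-09), under the threshold of size. Once the ND1 day 7 share was removed limma again called 0 of either list, and at an unadjusted p under 0.05 the SR list had 0 higher and 9 lower and the hnRNP list 0 higher and 13 lower. A gene that rose by day 7 with a smaller share than the one removed is put below control by the subtraction itself. No direction is read from these counts.

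Of 12 tested among 14 listed genes tied to PTBP by function, 3 were called higher and 3 lower in ND1 day 7 than in control day 7 cells, with a median log2 fold change of -0.21. These counts were near the background of 25.7% higher and 24.5% lower over all tested genes, and are not a result about the list. The 3 higher were Gabbr1 (4.75), Dlg4 (3.51) and Matr3 (2.75). Gabbr1 encodes a GABA-B receptor subunit and Dlg4 the synaptic scaffold PSD-95, both of which carry exons that PTBP proteins repress, and MATR3 is a binding partner of PTBP1. Dlg4 averaged 73.0 ± 0.570 FPKM in ND1 day 7, 110 ± 4.91 FPKM in neurons and 5.49 ± 0.176 FPKM in control day 7 libraries. Gabbr1 averaged 60.9 ± 0.808 FPKM in ND1 day 7, 110 ± 3.16 FPKM in neurons and 1.30 ± 0.168 FPKM in control day 7 libraries. Both were thus lower in ND1 day 7 cells than in neurons, by a log2 fold change of -0.59 for Dlg4 and -0.84 for Gabbr1, under the threshold of size.

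The 3 lower genes were Ctdsp1 (-3.94), Bak1 (-2.56) and Rest (-1.59). CTDSP1 is a phosphatase that acts with the repressor REST on neuronal genes and is a target of miR-124, and Bak1, a pro-apoptotic gene, carries a small exon used in neurons that leads to decay of its transcript. Bak1 averaged 11.1 ± 1.18 FPKM in ND1 day 7, 15.9 ± 1.04 FPKM in neurons and 70.7 ± 3.41 FPKM in control day 7 libraries. Rest averaged 1.62 ± 0.0884 FPKM in ND1 day 7, 0.556 ± 0.0824 FPKM in neurons and 6.96 ± 1.46 FPKM in control day 7 libraries. At day 2 the list had 2 called higher, Dlg4 and Gabbr1, and 0 lower by limma, with 6 lower at an unadjusted p under 0.05. Once the ND1 day 7 share was removed limma called 0 of the list, with 0 higher and 8 lower at an unadjusted p under 0.05. These counts depend on the share subtracted, and no direction is read from them.

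CpG methylation was compared between 1 ND1 library and 1 control library with no day on their labels, with no replicate and no read depth in the tables, so the values are a description. The mean over all CpGs was 70.3% in the ND1 library and 70.2% in the control library. Within 1000 bases of their starts Ptbp1 averaged 0.616% in the ND1 library and 0.590% in the control library over 165 CpGs, and Ptbp2 averaged 5.83% in the ND1 library and 5.95% in the control library over 110 CpGs. The PTBP pair, opposite in expression, was thus unmethylated at both starts in both libraries. The Ptbp2 start used, at chr3:119783388, lies inside the gene's full extent, and the outer end at chr3:119784647 was outside this window. Elavl3 was at 8.52% in the ND1 library and 8.56% in the control library over 107 CpGs. Nova2 was at 6.18% in the ND1 library and 6.15% in the control library over 77 CpGs, and Nova1 at 1.81% in the ND1 library and 2.26% in the control library over 113. About 33% of the 27544 annotated starts were under 10% in either library.

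**Figure D5:**
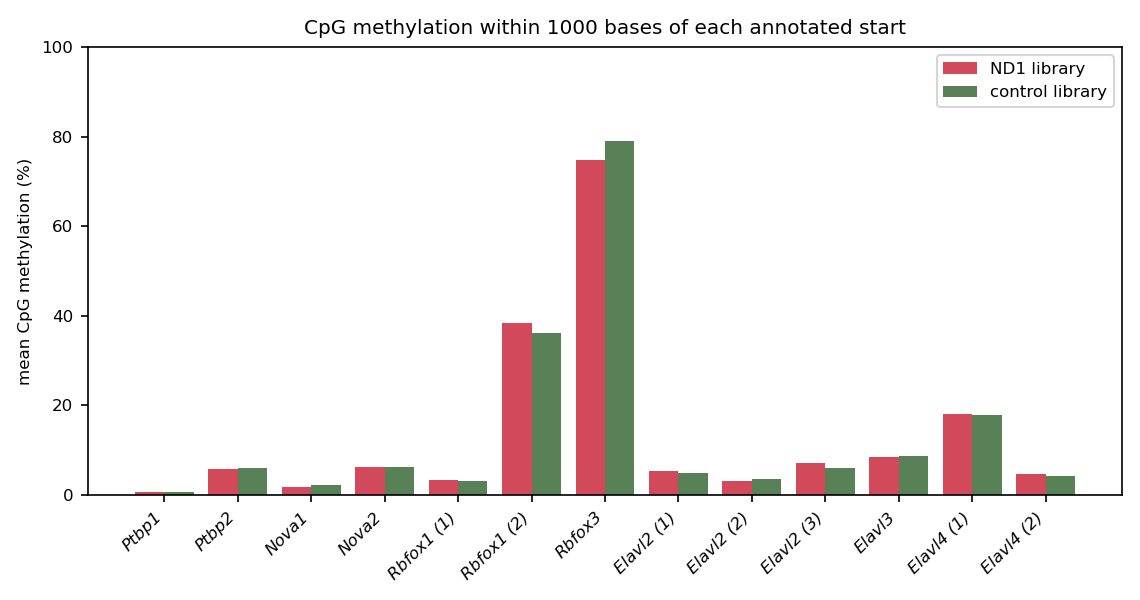
Mean CpG methylation in percent within 1000 bases of each annotated start, in the ND1 library (red, left) and the control library (green, right), 1 library each; numbers in brackets count the starts of a gene by rising coordinate. The paired bars are close throughout, and only Rbfox3 stands above 70%. Rbfox2 had no start in the promoter set used and is not shown.

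Rbfox2 had no start in the promoter set used, so no start value is given for it. Among the other 9 members Rbfox3 had the most methylated start. Its RefSeq start at chr11:118761041, inside the gene's full extent and with the CpG-poor sequence printed above, was at 74.7% in the ND1 library and 78.9% in the control library over 21 CpGs. Only 3.87% of all starts had a more negative difference than its -4.21 points, and the middle 90% of starts ran from -3.65 to 4.41 points. At the far 5′ end of the extent Rbfox3 was at 61.0% in the ND1 library and 59.4% in the control library over 21 CpGs, a difference of 1.63 points in the other direction. Of the Rbfox1 starts, the one at chr16:5884793 was at 3.35% in the ND1 library and 2.99% in the control library, and the one at chr16:7069835 was at 38.4% in the ND1 library and 36.1% in the control library. The 3 starts of Elavl2 lay between 3.15% and 7.17% in the ND1 library and between 3.63% and 6.09% in the control library. The outer start of Elavl4 was at 4.58% in the ND1 library and 4.30% in the control library, and its inner start was at 18.1% in the ND1 library and 17.8% in the control library. Over whole gene bodies the members differed by 0.06 to 1.09 points, ND1 minus control, inside the -1.21 to 1.62 points that held the middle 90% of 18774 protein-coding genes.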

How the data were processed

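The authors deposited RNA values as FPKM per gene. For them the submitters' processing notes name TopHat, Bowtie2, Cufflinks and Cuffdiff on mm10, without versions. The bisulfite tables hold a deposited methylated fraction per CpG with no coverage, so depth is unknown, and no bisulfite tool is given in the sources used here. The 10 immunoprecipitation samples were not analysed here.

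Each RNA table lists 24293 entries, of which 4 with a duplicated symbol were left out. The 13599 genes that reached 1 FPKM in 3 or more libraries were fitted as log2(FPKM + 1), pseudocount 1, with limma 3.58.1 (intensity trend) in R 4.3.3, and all 15 libraries shared 1 spread over 5 group means. Changes of weakly expressed genes are understated on this scale. Calls needed a Benjamini-Hochberg adjusted p below 0.05 over all tested genes and a log2 fold change of 1 or more in size. The procedure was tested on simulated data. The worth of 1 read, from the spacing of low values, varied from 0.728 to 1.13 between libraries relative to control day 2 replicate 1, replicates correlated at 0.975 to 0.986, and no libraries were identical.

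Neuron-high genes had 20 or more times the control day 7 mean in neurons, a mean of 10 FPKM or more in both neurons and ND1 day 7, and no ND1 or neuron library at 0. The share was (ND1 day 2 minus control day 2) over (ND1 day 7 minus control day 2). Named are all 10 members, up to 4 genes per direction of each companion list with the largest called change at day 7, the 5 genes most correlated with Ptbp1 and with Ptbp2, and Neurod1. Members and lists were chosen with earlier results of these data known. Methylation was averaged over CpGs present in both tables (15113549). Alternatives were other pseudocounts, filters, scalings, fits and windows, and each replicate left out; for Rbfox3 a further start was added after seeing the data.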

Additional observations from a re-analysis of the deposited data

Results flagged for a closer look

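The effect of ND1 differed between the days for 9 of the 10 genes by a direct test of the difference (limma, adjusted p under 0.05 and at least 1 in size on the log2 scale). The day 7 effect minus the day 2 effect was -1.81 for Ptbp1, 3.04 for Ptbp2, 2.46 for Nova2, 2.42 for Rbfox1, 2.53 for Rbfox2, 1.93 for Rbfox3, 2.61 for Elavl2, 2.88 for Elavl3 and 2.29 for Elavl4. After removal of the ND1 day 7 share from the ND1 day 2 libraries it was -2.002 for Ptbp1, 4.19 for Ptbp2 and 3.25 for Rbfox3. The subtraction moves ND1 day 2 away from ND1 day 7, so a larger difference is set by construction. The values after removal are therefore a description and not a further test. Groups of 3 libraries are too small to be searched for single libraries that stand apart.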

How the results depend on the processing

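Counts over all 13599 genes moved more than those over the members. For ND1 day 2 against control day 2 the 1237 higher and 84 lower calls became 2367 and 157 with a pseudocount of 0.1, 817 and 159 with quantile normalization, and 99 and 41 with the ND1 day 7 share removed, and 45 lower were called with median-of-ratios scaling. Removing the share left 0 members called higher, and the log2 fold changes of Ptbp2 (-0.21), Nova1 (-0.19), Rbfox1 (-0.15), Rbfox2 (-0.094) and Elavl2 (-0.22) were turned by its construction. A pseudocount of 0.1 gave 1115 higher and 777 lower for control day 7 against control day 2, with 2 members lower (Elavl2 added, -1.08), and 1737 higher for ND1 day 7 against neurons. Quantile normalization turned Nova1 at day 2 (-0.47) and Rbfox1 (-0.053) and Rbfox3 (-0.060) between the control days; the cause was not tested. Leaving out single replicates gave 0 to 1 members called higher for ND1 day 7 against neurons, log2 fold changes of -0.020 to 0.027 for Rbfox1 between the control days, and -0.082 to 0.011 for Elavl2 between ND1 day 7 and neurons. Nova1 did not pass a filter of 5 FPKM. Of 214 counts over the members under alternatives, 4 changed, and of 1371 single-gene values 24 changed. Replicate numbers did not pair the libraries: of 30 pairs of equal number 2 had a correlation of deviations over 0.1, 3 of 15 libraries correlated best with their own number, and a replicate block gave 8 members higher and 1 lower at day 7, as without it, and changed no other count over the members. Without read counts, no counting error can be given for values under 1 FPKM or for methylation.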
